A study of Mus musculus with 22 samples.

Results

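RNA bound by the J2 antibody was set against input RNA in whole fetal liver of mouse embryos labelled Mettl3-deficient, by gene and by gene biotype (the annotation class of a gene). The comparison takes 4 of the 22 samples of the series: input libraries 1 and 2 and J2 pull-down libraries 1 and 2 of the group labelled KO. These embryos carried floxed Mettl3 alleles with Vav-Cre, and the controls, labelled WT here, gave 4 further libraries that were used for the shared spread and for 1 test of the difference. All livers were taken at E14.5 (embryonic day). One piece of a liver went into TRIzol as input, and the remainder was lysed and incubated with 5 µg of J2, so the 2 fractions differ in lysis as well as in the antibody step. A pull-down with an unspecific antibody was not analysed here, so enrichment below means a higher share of counts in the pull-down than in the input. The Vav promoter drives Cre mainly in blood cells, and whole liver also holds hepatocytes and stroma.

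Mettl3 writes N6-methyladenosine (m6A) into RNA as the catalytic subunit of the methyltransferase complex. J2 recognises the shape of long RNA duplexes with little dependence on sequence. Such duplexes form in cells from inverted repeats within a transcript, from transcripts of both strands of a locus and, in large amount, from the 2 strands of mitochondrial DNA, which are both transcribed along their whole length. At this stage the liver is the main blood-forming organ of the embryo and holds erythroid precursors, hepatoblasts and a smaller number of macrophages, megakaryocytes and granulocyte precursors.

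The KO-labelled input libraries held 4120864 and 3407590 counts and the KO-labelled pull-downs 5251496 and 4714840. The 4 WT-labelled libraries held 3100910 to 4017500. Levels are given as CPM, counts scaled to a common library size with TMM factors, and are not corrected for gene length. Markers of the liver were present in the KO-labelled inputs: 6 erythroid markers summed to 31390 and 26350 CPM and 5 hepatocyte markers to 17500 and 18230 CPM, while 3 lymphoid markers were at 0 and 0.31 CPM. Both sums were lower in the WT-labelled inputs, at 18010 and 23710 CPM and at 9143 and 12090 CPM. The erythroid sum includes globins. A list of 29 erythroid genes without globins went the other way, at 10417 and 9398 CPM in the KO-labelled inputs and 15611 and 20812 CPM in the WT-labelled ones. Liver 1 of the KO label and liver 2 of the WT label held Y-linked transcripts and next to no Xist, and the other two livers the reverse, in input and pull-down alike, so each label has 1 male and 1 female embryo. In whole tissue, fewer cells of a type and less RNA per cell cannot be told apart.

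The targeted gene did not separate the labels. Mettl3 (ENSMUSG00000022160, chromosome 14, start at 52305128 on the minus strand, GRCm38.p5) stood at 6.70 and 26.9 CPM in the KO-labelled inputs and at 29.4 and 24.9 CPM in the WT-labelled inputs. KO-labelled input 1 was below both controls and input 2 lay between them (log2 fold change KO over WT -0.70, SE 0.56, adjusted p 0.557). In the pull-downs it stood at 46.2 and 34.6 CPM under the KO label and 25.5 and 30.2 CPM under the WT label (log2 fold change 0.54, SE 0.54, adjusted p 0.764). Counts over a whole gene also include exons outside the floxed part, and cells that Vav-Cre does not reach keep the gene. The groups below are therefore named by their labels. Another marker did separate them: Isg15, a ubiquitin-like protein made after interferon, had 163 and 204 CPM in the KO-labelled inputs and no count in either WT-labelled input.

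Of 52459 listed genes, 14657 passed the filter on low counts. At an adjusted p under 0.05, 4462 genes (30.4%) differed between pull-down and input in the KO-labelled livers, 2246 higher (15.3%) and 2216 lower (15.1%). The shift was 2-fold or more for 2048 of the higher and 2094 of the lower genes, and 8-fold or more for 352 and 471. All 2246 higher genes, and 2214 of the 2216 lower ones, had both pull-downs on the same side of both inputs. These genes were called from the same libraries, so this was largely set by the calling and is no separate support. The share over all genes tested is not given. Over all genes tested the log2 ratios of the 2 livers correlated at r = 0.675, and at r = 0.814 over the 10128 genes whose mean log2 CPM reached 3. Both ratios of these correlations share their scaling and are not independent across genes. Scaling by library size alone, without TMM, moved the median log2 fold change of all genes from 0.04 to 0.33 and the calls to 2933 higher and 1730 lower, so 62.9% of calls were then higher in place of 50.3%.

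**Figure D1:**
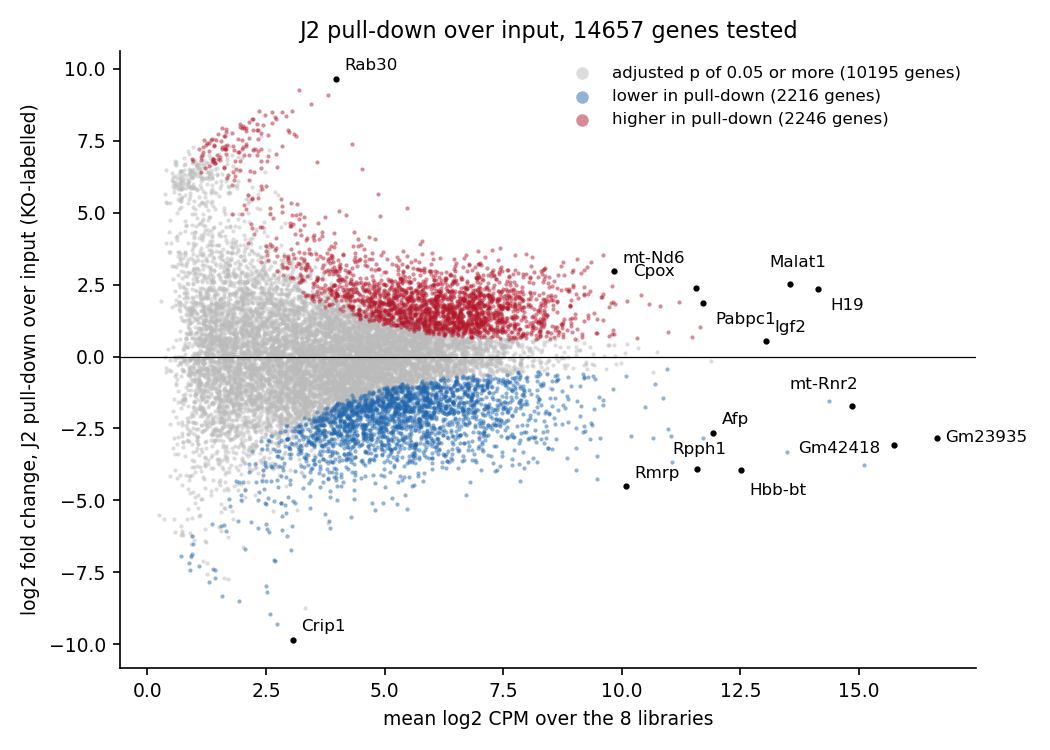
Log2 fold change of J2 pull-down over input in the KO-labelled livers (y) against the mean log2 CPM over the 8 libraries (x), 1 point per gene tested, with 15 genes named. The 2246 higher and 2216 lower genes are coloured; the band of points at the upper left holds genes with few or no counts in the inputs, whose fitted fold changes depend on a prior count.

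Noncoding transcripts with the most counts in the pull-down set the scale of the enrichment. H19 (ENSMUSG00000000031, chromosome 7, start at 142578120), an imprinted long noncoding RNA of fetal liver, had 6250 and 6944 CPM in the inputs and 33208 and 33904 CPM in the pull-downs. Both pull-downs were more than 4-fold above both inputs (log2 fold change 2.35, SE 0.12, adjusted p 6.84e-07). Malat1 (chromosome 19, start at 5802640), a nuclear noncoding RNA held in speckles, went from 4567 and 4369 CPM to 25717 and 25476 CPM (log2 fold change 2.52, SE 0.14, adjusted p 8.23e-07). Igf2, the growth factor gene next to H19, moved far less: 6844 and 7253 CPM in the inputs and 10138 and 10525 CPM in the pull-downs (log2 fold change 0.55, SE 0.11).

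Of the 10 genes with the most counts in the KO-labelled pull-downs, 6 were called higher. Besides H19, Malat1 and Igf2 these were Pabpc1, for the protein that coats poly(A) tails, Cpox, for a late enzyme of haem synthesis, and mt-Co1, for a subunit of cytochrome oxidase. Pabpc1 rose from 1262 and 1213 to 4554 and 4475 CPM (log2 fold change 1.87, SE 0.12), and Cpox from 854 and 762 to 4777 and 3572 CPM (2.37, SE 0.24). The 4 others were called lower. Gm23935, an unnamed miRNA gene model, fell from 124470 and 112210 to 15969 and 17335 CPM (log2 fold change -2.83, SE 0.09), and Gm42418, a noncoding gene in an interval of chromosome 17 known to collect ribosomal RNA reads, from 58520 and 100780 to 9716 and 9403 CPM (-3.06, SE 0.20). The mitochondrial ribosomal RNA genes mt-Rnr2 and mt-Rnr1 were the remaining members and are described with the mitochondrial transcripts.

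**Figure D2:**
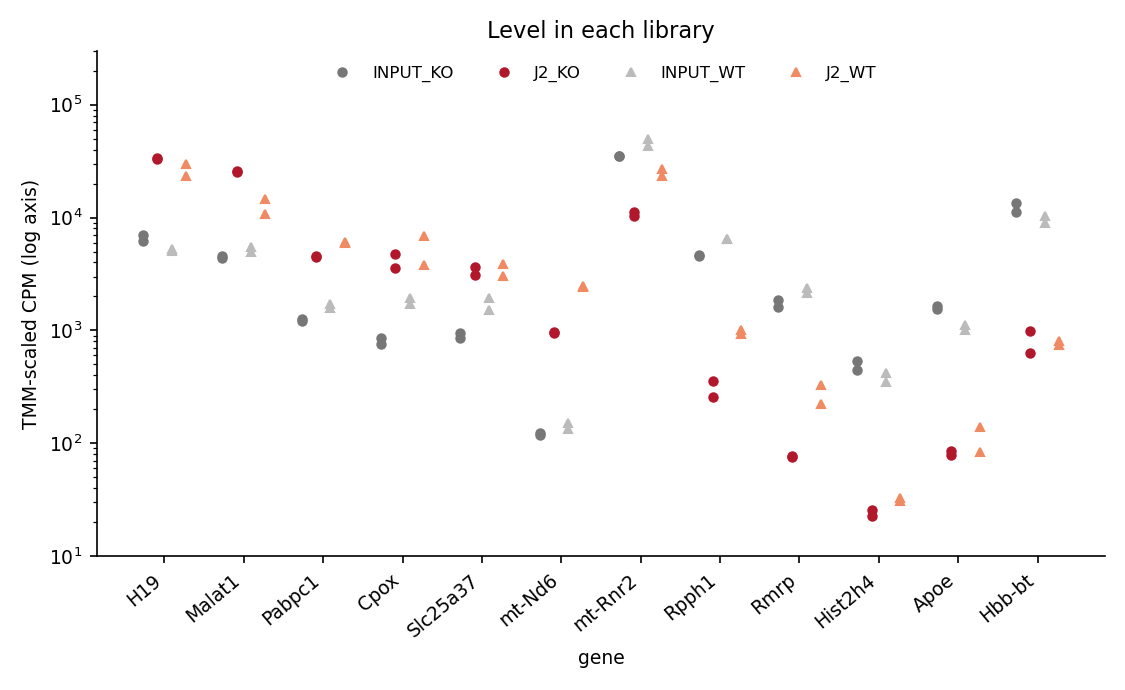
TMM-scaled CPM (y, log axis) of 12 genes (x) in each of the 8 libraries, circles for KO-labelled and triangles for WT-labelled livers, with inputs in grey and pull-downs in colour. The KO-labelled pull-downs lie above both inputs for the first 6 genes (H19 to mt-Nd6) and below both for the other 6.

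The largest fold changes mostly belonged to transcripts all but absent from the KO-labelled inputs. Among called genes whose mean log2 CPM reached 3, the 12 highest were 7 TEC genes (loci annotated from transcript evidence and awaiting experimental testing), 2 lincRNA genes and 3 protein-coding genes. Rab30, for a small GTPase of the Golgi (chromosome 7, start at 92741603), had no count in either input and 27.1 and 22.3 CPM in the pull-downs. Set against a floor of 3 counts over both inputs (0.41 CPM), that is at least 60.1-fold higher. The same floor gave at least 46.1-fold for AC124453.1 (25.5 and 12.4 CPM) and at least 40.2-fold for Dnaaf2, which helps assemble the motors of cilia (21.9 and 11.1 CPM). D430013B06Rik, Gm43593, A730036I17Rik and Gm15892, also without an input count, were at least 33.0-, 27.8-, 16.0- and 15.0-fold higher.

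Of these 7 genes without a KO-labelled input count, AC124453.1 had none in the WT-labelled inputs either and the other 6 did. Rab30 stood there at 3.86 and 9.40 CPM, Dnaaf2 at 5.41 and 4.09 CPM and Gm15892 at 5.41 and 18.8 CPM. A730036I17Rik had 1.54 and 1.63 CPM, Gm43593 0.39 and 5.72 CPM, and D430013B06Rik 3.48 and 0 CPM. The inputs themselves differed between labels for Rab30 (adjusted p 0.026), Dnaaf2 (0.0376) and Gm15892 (0.0434), and Gm15892 had a log2 fold change of pull-down over input of only 0.33 in the WT-labelled livers. The difference of enrichment between labels was not called for these 3 genes (adjusted p 0.298, 0.443 and 0.443). Gm43482, in the gene Vkorc1l1, had 1 KO-labelled input count in all (7.72 and 3.68 CPM in the WT-labelled inputs, adjusted p 0.0278 for the inputs) and 28.4 and 27.9 CPM in the pull-downs, a ratio of 206 with an exact 95% counting interval of 36.7 to 8150. Gm37733, in Usp37, gave a ratio of 103 (28.3 to 855) and AC152061.1 one of 130 (23.1 to 5164). Gm38302, in Rabgap1l, gave 49.6 (8.65 to 1982), and its call was lost without input 1, input 2 or pull-down 1 (adjusted p 0.0599, 0.102 and 0.106). Lpar4, for a receptor of lysophosphatidic acid, had counts in every library: 2.73 and 0.31 CPM in the inputs and 83.0 and 78.4 CPM in the pull-downs (log2 fold change 5.64, SE 0.69). Over all called genes, 122 of the higher ones had no count in either KO-labelled input and 22 of the lower ones none in either pull-down. Intervals and floors here cover counting error only.

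At the other end, the 12 lowest genes included 9 protein-coding genes and 3 processed pseudogenes. Crip1, for a small LIM-domain protein (chromosome 12, start at 113152081), had 22.8 and 33.6 CPM in the inputs and no count in either pull-down, so it was at least 111-fold lower. Ddt, for a tautomerase, fell from 50.9 and 37.6 to 0.33 and 1.06 CPM (log2 fold change -5.95, SE 1.33). Ttc36, a liver gene, fell from 30.0 and 45.3 to 0.82 and 0.53 CPM (-5.73, SE 0.84), and Ino80b, for a subunit of a chromatin remodeller, from 32.3 and 44.3 to 0.33 and 1.24 CPM (-5.58, SE 0.72). Scand1 (-5.33), Cdpf1 (-5.26) and the histone gene Hist1h2ag (-5.11) were also among the 12 lowest. So were the processed pseudogenes Gm10443 (-5.30), Gm2962 and Gm3244, whose reads can come from near-identical parent genes. Icam4, of the erythroid surface, stood at 5.46 and 4.89 CPM in the inputs with 1 count in the pull-downs, a ratio of 0.0163 (0.000402 to 0.0965). For Mzt2 and Gm3244 the call was lost without input 1 (adjusted p 0.138 and 0.0522), for Mzt2 also without pull-down 1 (0.124) and for Gm3244 without pull-down 2 (0.0587).

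Genes called higher and lower also differed in length, which had no part in the test. Protein-coding nuclear genes were split into 5 groups of like size by their span in RefSeq (GRCm38.p6), which was found by symbol for 11913 of 12260. In the shortest group (median span 4.90 kb) 118 of 2383 genes were called higher and 774 lower, with a median log2 fold change of -1.28. Through the next 3 groups the median was -0.47, -0.05 and 0.37, and in the longest (median span 128 kb) it was 0.67, with 646 higher and 90 lower. Both livers showed the same order, from -1.13 and -1.17 in the shortest group to 0.66 and 0.70 in the longest. Genes called higher had a median span of 47.6 kb, genes called lower 11.9 kb and all of them 25.1 kb.

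The contrast of shortest and longest genes was also seen at each level of expression. When coding genes were first split into 5 groups by their level in the WT-labelled inputs, which do not enter the contrast, the longest genes of each had a median of 0.63 to 0.83 and the shortest one of -1.79 to -0.69. Overlap with an annotated gene of the opposite strand, a possible source of duplexes, moved the medians less. Within the longest group the median was 0.71 for the 979 genes with such an overlap and 0.64 for the 1404 without, and in the shortest group it was -1.33 for 554 genes and -1.27 for 1829. These are counts over annotation, and whether the opposite gene was transcribed was not tested.

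Noncoding loci within introns or outside genes had the higher medians among gene classes. Of 128 sense_intronic genes, which lie within introns on the strand of their host, 29 were called higher and 0 lower (22.7% higher against 15.3% of all genes), with a median log2 fold change of 2.33, or 2.15 with genes lacking counts on 1 side set to their bound. Of 778 TEC genes, 145 were higher and 2 lower (median 2.09, and 1.99 with bounds). Among 238 lincRNA genes 41 were higher and 6 lower (median 1.52), among 157 processed_transcript genes 21 and 8 (1.37), and among 150 antisense_RNA genes 14 and 3 (1.08). The higher share was 18.6% for TEC and 17.2% for lincRNA genes, but 13.4% and 9.33% for the last 2 classes, under that of all genes. The 12270 protein-coding genes had 1963 higher and 1999 lower, with a median of -0.08.

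Classes of short, stable RNA and of reverse-transcribed copies lay on the low side. Of 565 processed pseudogenes, 129 were lower and 12 higher (median -1.28), and of 89 snoRNA genes, the guides of RNA modification, 23 were lower and 1 higher (median -1.51). The higher share of each class is to be read beside its counts: in sense_intronic genes 26 of 128 had no count in one of the KO-labelled fractions, and in TEC genes 128 of 778. Genes tested in a class are those that passed the count filter, in which a gene can pass through its pull-downs alone.

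**Figure D3:**
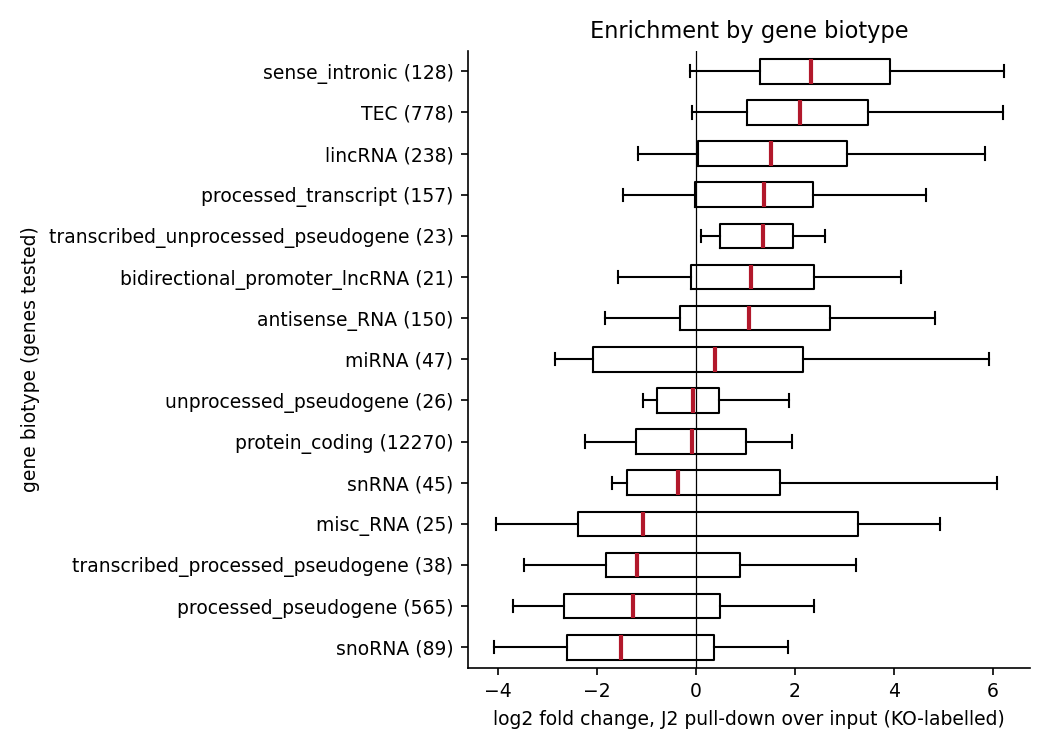
Log2 fold change of J2 pull-down over input (x) for each gene biotype with at least 20 genes tested (y, number of genes in brackets); boxes span the quartiles, the red line is the median and whiskers reach the 10th and 90th percentile. Medians run from -1.51 for snoRNA to 2.33 for sense_intronic genes.

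Most of these intronic loci sat within coding genes on the same strand. The start of 624 of 778 TEC genes and 116 of 128 sense_intronic genes lay inside the RefSeq span of a protein-coding gene of that strand. For 739 of them the host was tested too, and their median log2 fold change was 1.99 against 0.94 for the hosts. Of the 739, 535 stood above their host, where those with no count on 1 side enter at their bound. A locus with few input counts could pass the count filter only through its pull-downs. The contrast with the hosts can therefore come in part from that filter, which was not tested. TEC genes with an H3K4me3 mark at the start in sorted blood progenitors (windows whose mean log2 CPM reached 4, over the 4 libraries of both labels) had a median of 2.12 (139 genes), and those without had 2.09 (639 genes). The mark was measured in another cell fraction, and the counting of strand is not given in the sources used here, so reads of a host's unspliced transcript and of the locus itself cannot be told apart.

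MicroRNA genes were tested as loci, since counts of total RNA over a hairpin include its host transcript. Of 47 tested, 4 were called higher (8.51%) and 7 lower (14.9%), shares below those of all genes; the 4 (Gm27399, Mir3058, Gm24194 and Mir1898) had no input count under the KO label. Of the 47 symbols, 24 were matched to a RefSeq hairpin (GRCm38.p6). Whether the counted reads came from a hairpin or from its host transcript was not tested. The precursors of the 2 named loci on the high side follow, with mature miRNA in capitals and in the RNA alphabet.
Mir3058 (chr10:95559231-95559321, minus strand): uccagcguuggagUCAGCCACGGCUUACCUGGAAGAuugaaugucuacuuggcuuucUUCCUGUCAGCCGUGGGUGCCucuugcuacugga
Mir1898 (chr15:12171492-12171574, plus strand): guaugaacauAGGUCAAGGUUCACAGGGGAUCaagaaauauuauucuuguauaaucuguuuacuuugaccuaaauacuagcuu
Folding by minimum free energy (RNAfold) paired 64 of 91 bases in the first, with a longest uninterrupted stem of 8 base pairs, and 48 of 83 in the second, with 11. Mir3058 had 3.43 and 3.36 CPM in the pull-downs (at least 8.26-fold higher) and Mir1898 3.43 and 3.53 CPM (at least 8.47-fold). Their host genes Nudt4 and Zfr were at log2 fold changes of 1.10 and 1.22. The call of Gm24194 was lost without any 1 KO-labelled library (adjusted p 0.0909 to 0.248) and with the block (0.113). The calls of the 2 named loci also depended on single libraries: without 1 library the adjusted p ranged from 0.0488 to 0.0749 for Mir3058 and from 0.114 to 0.16 for Mir1898, and with the animal as a block it was 0.119 for Mir1898.

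The erythroid miRNA cluster on chromosome 11 was not called, although Mir451a was called lower with only the 4 KO-labelled libraries fitted (-1.32, adjusted p 0.0207) and Mir144 higher without input 1 (2.05, adjusted p 0.0487). The mature forms follow 5′ to 3′ with the seed, bases 2 to 8, in capitals, and no seed is shared among them.
mmu-miR-144-5p: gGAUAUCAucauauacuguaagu
mmu-miR-144-3p: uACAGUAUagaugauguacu
mmu-miR-451a: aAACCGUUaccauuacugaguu
The Mir144 hairpin (chr11:78073005-78073070) stood at 11.4 and 4.28 CPM in the inputs and 18.3 and 15.9 CPM in the pull-downs (log2 fold change 1.10, SE 0.54, adjusted p 0.145). Mir451a, whose hairpin (chr11:78073170-78073241) folds into a stem of 17 uninterrupted base pairs, the longest of the 5 hairpins folded, stood at 53.6 and 37.6 CPM in the inputs and 19.1 and 17.8 CPM in the pull-downs (-1.30, SE 0.59, adjusted p 0.114). Mir7688 was called lower from 28 input counts, all of them in input 2, and its adjusted p was 1 without that library.

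Of 18 mitochondrial transcripts tested, 4 were called higher (mt-Nd6, mt-Tp, mt-Nd5 and mt-Co1) and 5 lower. Only 3 products of the light strand were tested, and the strands were not compared. mt-Nd6, the one protein gene of the light strand, had the highest fold change among those with input counts. It stood at 119 and 124 CPM in the inputs and at 959 and 941 CPM in the pull-downs. Every pull-down was over 7 times every input (log2 fold change 2.97, SE 0.16, adjusted p 6.84e-07). The light-strand transfer RNA gene mt-Tp had no input count and 7.68 and 5.83 CPM in the pull-downs, at least 16.4-fold higher, while mt-Tq of the same strand was at 6.45 and 7.03 against 2.29 and 1.59 CPM and was not called (adjusted p 0.201). Of the heavy-strand messenger RNAs, mt-Nd5, which lies beside mt-Nd6, rose by a log2 fold change of 0.84 (SE 0.17) and mt-Co1 by 0.67 (SE 0.14). On the log2 scale mt-Nd2 fell by 0.68 (SE 0.15) and mt-Cytb by 0.43 (SE 0.14). The last call, for mt-Cytb, was lost without any 1 of the 4 libraries (adjusted p 0.0686 to 0.345), and that of mt-Nd2 without input 2 or pull-down 1 (0.0569 and 0.118). Library size alone ended both calls (0.487 and 0.0856), and that of mt-Cytb was also lost with RLE (0.0614), TMM from coding genes (0.0659) and no filter (0.0785).

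The mitochondrial ribosomal RNAs were depleted. mt-Rnr1 fell from 23339 and 24759 CPM to 8508 and 8056 CPM, a log2 fold change of -1.54 (SE 0.10), and mt-Rnr2 from 35400 and 35279 to 11246 and 10344 CPM, one of -1.71 (SE 0.10). Since the counting of strand is not given in the sources used here, antisense reads over a mitochondrial gene and reads of its own strand cannot be told apart.

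Abundant folded noncoding RNAs were depleted. Of 9 tested, 8 were called lower and 0 higher, against 15.1% lower among all genes, and the median log2 fold change was -3.90. These RNAs have short helices within a compact fold. Rpph1, the RNA of ribonuclease P, fell from 4610 and 4537 CPM to 359 and 256 CPM (-3.90, SE 0.17), and Rmrp, that of a related ribonuclease, from 1600 and 1873 to 77.6 and 75.8 CPM (-4.50, SE 0.21). Both pull-downs lay below both inputs in either case. Rn7sk, which holds back the elongation factor P-TEFb, fell from 2264 and 2480 to 968 and 793 CPM (-1.43, SE 0.16), and Rn7s2, of the signal recognition particle, from 65.7 and 110 to 6.86 and 3.71 CPM (-4.04, SE 0.49).

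Many messenger RNAs of histones, ribosomes and secreted liver proteins were depleted, as a small part of the 1999 coding genes called lower. Of 64 replication-dependent histone genes, whose short messages end in a stem-loop and lack a poly(A) tail, 56 were called lower and 0 higher (median log2 fold change -3.19). Hist2h4 stood at 445 and 538 CPM in the inputs and 25.8 and 22.8 CPM in the pull-downs (-4.34, SE 0.23), and Hist1h1c, of the linker histone, fell by 3.22 on the log2 scale (SE 0.19). Cytosolic ribosomal protein genes had 64 of 84 lower and 0 higher (median -1.87), among them Rpl38 (-3.72), Rplp2 (-2.87) and Rplp1 (-2.27). Mitochondrial ribosomal protein genes had 36 of 78 lower and 0 higher (median -1.51). Scaled by library size alone, 1 cytosolic ribosomal protein gene was called higher and 60 lower. Histone and ribosomal protein genes have near-identical copies between which reads may be split, so values of single members are uncertain.

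Hepatocyte plasma protein genes were depleted in 31 of 32 cases and enriched in 0, with a median of -2.81. Apoe, an apolipoprotein, fell from 1535 and 1650 CPM to 79.6 and 85.3 CPM (-4.27, SE 0.24) and Apoa1 from 1128 and 1133 to 64.0 and 82.8 CPM (-3.94, SE 0.20). Afp, the fetal counterpart of albumin, went from 8086 and 8702 to 1401 and 1290 CPM (-2.64, SE 0.14). The list summed to 29090 and 30840 CPM in the inputs and 5282 and 5223 CPM in the pull-downs. Genes of hepatocyte enzymes and regulators also had a median below 0, at -1.33 (-0.62 and -1.26 in the 2 livers), with members on both sides. Of 14 tested, 2 were higher (14.3% against 15.3% of all genes). These were the arginine transporter gene Slc7a2 (2.14, SE 0.28) and the transcription factor gene Prox1 (1.68, SE 0.25). Another 4 were lower (28.6% against 15.1%), among them Hpd (-4.20) and Ass1 (-2.19), or 2 with library size alone.

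Red cell genes split between globins and the rest. Of 9 globin genes 6 were called lower and 0 higher (median -2.72). Hbb-bt fell from 13388 and 11296 CPM to 984 and 635 CPM (-3.93, SE 0.20), Hbb-bs from 28531 and 23491 to 3238 and 2015 CPM (-3.31, SE 0.22) and Hba-a2 from 4011 and 3232 to 335 and 233 CPM (-3.67, SE 0.22); the paired copies share most of their sequence. Globins made up 4.59% and 3.76% of all input counts under the KO label and 0.548% and 0.363% of pull-down counts. Of 29 other erythroid genes, 8 were higher (27.6%) and 9 lower (31.0%), against 15.3% and 15.1% of all genes. The iron importer gene of mitochondria, Slc25a37, rose from 955 and 863 to 3629 and 3077 CPM (1.88, SE 0.17), and the anion exchanger gene Slc4a1 from 1301 and 1258 to 2787 and 2438 CPM (1.03, SE 0.15). Ppox, the enzyme gene that follows Cpox in haem synthesis, fell from 104 and 98.8 to 21.2 and 9.54 CPM (-2.71, SE 0.39), and Alas2, the first enzyme gene of the pathway in red cells, from 471 and 421 to 166 and 162 CPM (-1.44, SE 0.20). Enzymes of 1 pathway in 1 cell type thus lay on opposite sides.

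Among markers of other cell types, the called members lay mainly on the low side. Granulocyte genes had 8 of 12 lower and 0 higher (median -2.50), among them Mpo, the peroxidase of primary granules, at 307 and 358 against 60.9 and 65.5 CPM (-2.39, SE 0.26) and S100a9 (-3.51, SE 0.46). Megakaryocyte genes had 7 of 14 lower and 1 higher, with Pf4, a chemokine of platelet granules, at 206 and 200 against 26.6 and 11.7 CPM (-3.40, SE 0.37) and Plek, a substrate of protein kinase C, higher by 1.79 (SE 0.27). Macrophage genes had 6 of 14 lower, with the complement gene C1qc at -4.13 (SE 0.61), and 2 higher, with the iron exporter gene Slc40a1 at 76.2 and 95.1 against 318 and 251 CPM (1.73, SE 0.22). Of 12 endothelial genes 2 were lower (16.7%) and of 13 stromal genes 2 were lower (15.4%) and 1 higher, near the 15.1% lower of all genes, and of 3 lymphoid genes none was called. With 1 KO-labelled library left out, the calls of Cdh5, Col1a2, Col3a1 and Hgf were lost (adjusted p up to 0.238, 0.31, 0.11 and 0.186), and that of Hgf also with the block (0.0527). Stem and progenitor genes had 2 of 11 higher (18.2% against 15.3% of all genes), Runx1 (1.28, SE 0.23) and Mllt3, and 1 lower (9.09%), Spi1 (-2.69). The call for Mllt3 was lost without pull-down 2 (log2 fold change 0.80).

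**Figure D4:**
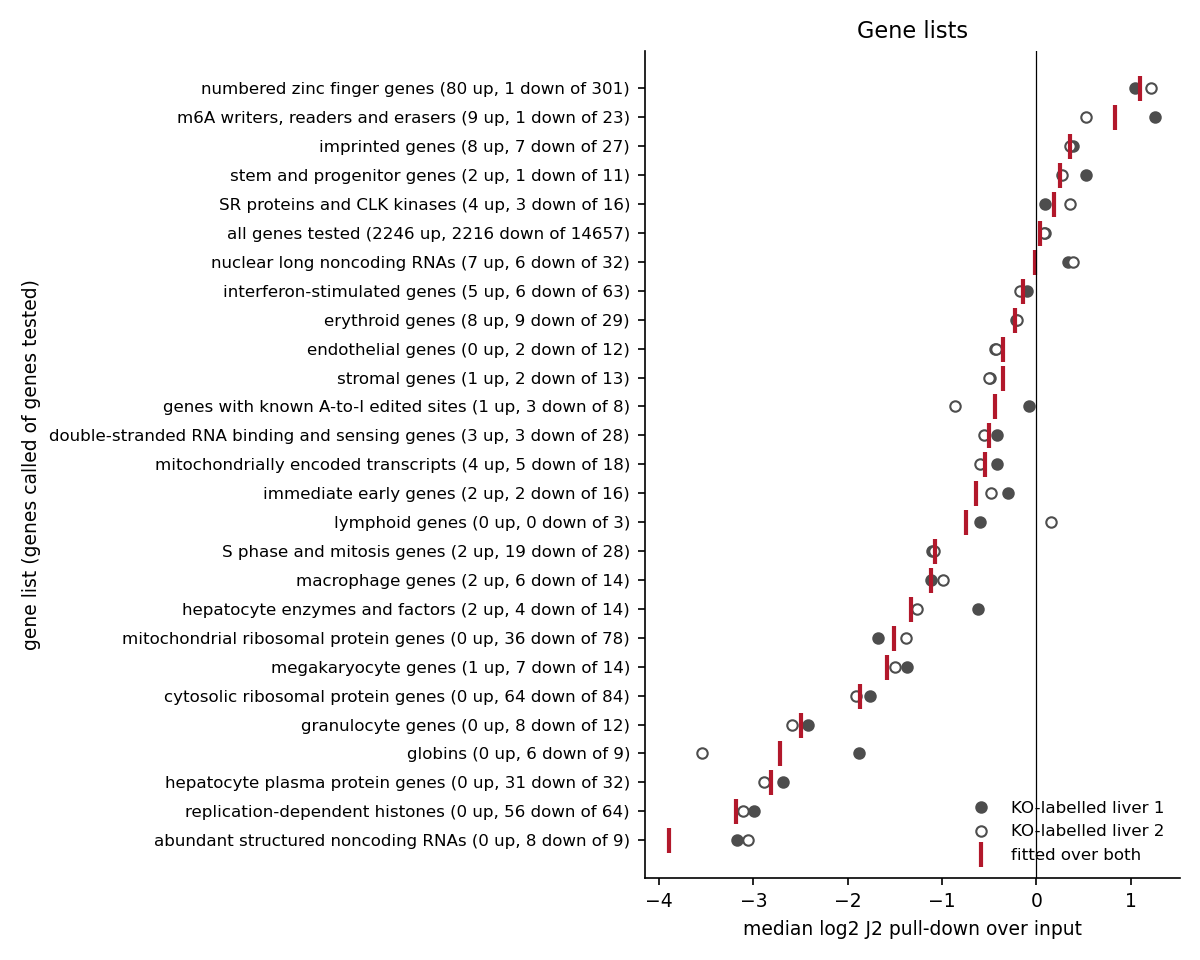
Median log2 ratio of J2 pull-down over input (x) of each gene list (y) in KO-labelled liver 1 (filled) and liver 2 (open), computed with 0.5 CPM added, and the median of the fitted log2 fold changes (red). In brackets are the members called higher and lower of those tested; the lists run from a fitted median of -3.90 for folded noncoding RNAs to 1.10 for numbered zinc finger genes.

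Numbered zinc finger genes, most of which encode repressors that bind DNA at transposable elements, lay on the high side: 80 of 301 were called higher and 1 lower, with a median of 1.10. Zfp652 (chromosome 11, start at 95713011) stood at 76.7 and 79.2 CPM in the inputs and 520 and 530 CPM in the pull-downs (2.75, SE 0.18), Zfp398 at 19.1 and 20.2 against 126 and 128 CPM (2.69, SE 0.28) and Zfp644 at 52.1 and 61.8 against 304 and 331 CPM (2.48, SE 0.20). Both pull-downs were over 4 times both inputs for each. The list's share of 26.6% called higher compares with 27.1% in the longest group of coding genes and 15.3% in all genes. The spans of the listed genes were not summarised, and whether length has a part in their share was not tested. Genes of DNA replication and mitosis went the other way in 19 of 28 cases, with 2 higher (median -1.07). Plk1, a mitotic kinase gene, fell from 103 and 119 to 14.4 and 6.89 CPM (-3.38, SE 0.38) and Pcna, the sliding clamp, from 121 and 70.9 to 21.4 and 12.5 CPM (-2.49, SE 0.36).

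The genes of the m6A machinery itself had 9 of 23 members higher and 1 lower, or 39.1% higher against 15.3% of all genes. Their median was 0.83, and 1.26 and 0.53 in the 2 livers. The share called higher also varied with level. Among coding genes grouped by level in the WT-labelled inputs it was 4.85% in the lowest group and 25.7% in the highest. The 23 genes were not matched for level. Rbm15, an adaptor of the methyltransferase, stood at 98.0 and 77.4 CPM in the inputs and 380 and 374 CPM in the pull-downs (2.10, SE 0.24). The reader gene Ythdf3 went from 49.1 and 45.0 to 193 and 182 CPM (1.99, SE 0.28), the reader gene Igf2bp1 from 108 and 186 to 453 and 472 CPM (1.66, SE 0.26) and the demethylase gene Alkbh5 from 96.0 and 119 to 311 and 326 CPM (1.57, SE 0.26). Splicing regulators were mixed, with 4 of 16 higher (25%) and 3 lower (18.8%), or 8 and 2 with library size alone. All genes had 15.3% higher and 15.1% lower. Srsf1 rose by 2.08 (SE 0.25), Tra2a by 1.73 (SE 0.31) and Srsf10 by 1.55 (SE 0.25), and Srsf2 fell by 1.17 (SE 0.22) on the log2 scale.

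Genes known for duplexes or for sensing them were not of one direction. Of 8 genes with known A-to-I editing, the mark that ADAR enzymes leave on double-stranded RNA, 1 was higher (12.5%) and 3 were lower (37.5%). All genes had 15.3% higher and 15.1% lower. Azin1 (chromosome 15, start at 38518162), which encodes the antizyme inhibitor, rose from 116 and 123 CPM to 591 and 559 CPM (2.27, SE 0.18, adjusted p 6.12e-06). Flna, which encodes filamin A, fell from 381 and 320 to 95.9 and 105 CPM (-1.80, SE 0.24). Copa fell by 0.84 on the log2 scale, a call lost without input 2, pull-down 1 or pull-down 2 (adjusted p 0.207, 0.139 and 0.202) and with library size alone (0.137). Genes that bind or sense double-stranded RNA had 3 of 28 higher and 3 lower, 10.7% each way, which is below the shares of all genes. Trim25, a ligase in RIG-I signalling, stood at 143 and 124 against 327 and 349 CPM (1.34, SE 0.19).

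Messages of interferon-stimulated genes were present in the KO-labelled inputs at a sum of 3197 and 4025 CPM, against 722 and 661 CPM under the WT label, and summed to 4612 and 5190 CPM in the KO-labelled pull-downs. Of 63 tested, 5 were higher (7.94%) and 6 lower (9.52%), below the 15.3% and 15.1% of all genes; the median was -0.14 and turned to 0.15 with library size alone. Dtx3l, a ligase gene, rose from 104 and 137 to 837 and 903 CPM (2.85, SE 0.37) and Rsad2, for the antiviral enzyme viperin, from 127 and 188 to 701 and 685 CPM (2.14, SE 0.30). Isg15 fell from 163 and 204 to 9.64 and 18.7 CPM (-3.69, SE 0.42).

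Imprinted genes had 8 of 27 members higher (29.6%) and 7 lower (25.9%), against 15.3% and 15.1% of all genes. Beside H19 and Igf2, Dlk1, a Notch ligand of hepatoblasts, fell from 1081 and 1098 to 114 and 127 CPM (-3.17, SE 0.18), and Cdkn1c, a cell cycle inhibitor, from 242 and 295 to 49.2 and 51.9 CPM (-2.41, SE 0.29). Gnas, for a G protein subunit, fell by 1.80 on the log2 scale (SE 0.20). Long noncoding RNAs of the nucleus had 7 of 32 higher (21.9%) and 6 lower (18.8%), against the same shares of all genes. Their median was -0.01, and 0.03 to 0.28 with the other scalings. Tug1 stood at 60.0 and 26.0 against 264 and 258 CPM (2.59, SE 0.32). Snhg1, a spliced host of snoRNAs, stood at 31.8 and 35.5 against 3.59 and 3.53 CPM (-3.23, SE 0.41). Immediate early genes had 2 of 16 in each direction (12.5%, below the shares of all genes), or 3 higher and 1 lower with any of the 3 other scalings, and of these 4 Klf6 (2.43, SE 0.29) and Jund (-2.14, SE 0.33) kept their calls without any 1 KO-labelled library, while Fosl2 and Myc did not (adjusted p up to 0.14 and 0.398).

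Summed over all genes of a biotype, counts were tested as a share of the library's total. Of 25 classes, 21 (84%) differed between pull-down and input in the KO-labelled livers, 10 higher and 11 lower. Protein-coding genes took 66.2% and 64.2% of input counts and 83.6% and 83.3% of pull-down counts (log2 fold change 0.36, SE 0.04, adjusted p 3.48e-05). With the TMM factors of the gene fit in place of totals that call was lost (0.07, adjusted p 0.467), as were those of bidirectional_promoter_lncRNA and polymorphic_pseudogene, and scaRNA was then called lower. TEC genes went from 0.228% and 0.193% to 0.964% and 0.925% (2.17, SE 0.14) and sense_intronic genes from 0.0288% and 0.0273% to 0.133% and 0.128% (2.22, SE 0.16). The miRNA class fell from 12.9% and 11.5% to 2.01% and 2.23% (-2.52, SE 0.08), and Gm23935 alone made up 12.2% and 10.8% of input counts. The other miRNA genes together fell from 0.703% and 0.706% to 0.153% and 0.152%. The median log2 fold change of the 47 miRNA genes tested was nonetheless 0.37, so the sum does not describe most genes of the class.

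The lincRNA class shows how a few genes set such a sum. It fell as a sum, from 11.2% and 15.0% to 8.98% and 9.42% (-0.51, SE 0.13), although its genes had a median of 1.52. Gm42418, Gm26917, H19 and Malat1 held 11.0% and 14.7% of all input counts and 8.29% and 8.68% of pull-down counts. Within these 4, Gm42418 fell from 5.72% and 9.67% to 1.13% in each pull-down, and Gm26917 from 4.17% and 3.90% to 0.294% and 0.422%. H19 rose from 0.611% and 0.666% to 3.87% and 4.07%, and Malat1 from 0.447% and 0.419% to 3.00% and 3.06%. The remaining lincRNA genes rose from 0.257% and 0.303% to 0.685% and 0.734%.

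Enrichment in the KO-labelled livers was then set against that in the WT-labelled ones by the test of the difference. By edgeR's quasi-likelihood test 0 of 14657 genes (0%) were called, with 1340 at an unadjusted p under 0.05 (9.14%), and DESeq2 called 76. The fold changes of both labels correlated at r = 0.588 over all genes and at r = 0.796 over the 10128 genes whose mean log2 CPM reached 3. Both values are a description over genes of libraries scaled together. With the liver of origin as a block, which the protocol provides since input and pull-down come from 1 liver, 10 genes were called, 4 with a larger and 6 with a smaller log2 ratio under the KO label. Malat1 was one of the 4: it had 10850 and 14700 CPM in the WT-labelled pull-downs against 25717 and 25476 CPM in the KO-labelled ones, with inputs of 4928 and 5436 and of 4567 and 4369 CPM. Its difference was 1.22 (SE 0.19, adjusted p 0.256) without the block and 1.23 (SE 0.13, adjusted p 0.00123) with it. mt-Rnr1 was one of the 6, at 20003 and 21641 CPM in the WT-labelled pull-downs against 8508 and 8056 CPM (difference -0.97, adjusted p 0.164, and -0.98 with adjusted p 0.00131 with the block). Rmrp, Rpph1, Apoa1, Actb and mt-Rnr2 were the other 5 of these and mt-Co1, Rps18-ps3 and Rpl10-ps3 the other 3 of the former, named after their values were seen. H19, with log2 ratios of 2.35 and 2.36, had a difference of -0.01 (SE 0.16).

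By biotype, the difference was called for 4 of 25 classes (16%), all with the lower ratio under the KO label. Mitochondrial ribosomal RNA (Mt_rRNA) took 5.75% and 5.76% of KO-labelled input counts and 2.30% and 2.21% of pull-down counts, against 6.03% and 6.33% and then 4.88% and 4.97% under the WT label. Both KO-labelled pull-downs lay below both WT-labelled ones and the inputs lay close together, and the difference of log2 ratios was -1.02 (SE 0.09, adjusted p 3.59e-05). For ribozyme RNAs, nearly all Rpph1 and Rmrp, it was -1.34 (SE 0.19, adjusted p 0.000745), for mitochondrial transfer RNAs (Mt_tRNA) -1.86 (SE 0.34, adjusted p 0.00294) and for misc_RNA, mostly Rn7sk, -1.22 (SE 0.25, adjusted p 0.00597). The misc_RNA call was lost without WT-labelled input 2 (adjusted p 0.0705). The KO-labelled pull-down of mt-Nd6 also lay below the WT-labelled one, at 959 and 941 against 2477 and 2412 CPM, with a difference of -1.12 (SE 0.21, adjusted p 0.298, and 0.00156 by DESeq2). Pull-down depth, the share of Gm23935 in the inputs (12.2% and 10.8% against 19.1% and 20.1%) and the summed cell type markers given above differed between the labels as well, and their part in these differences was not tested.

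**Figure D5:**
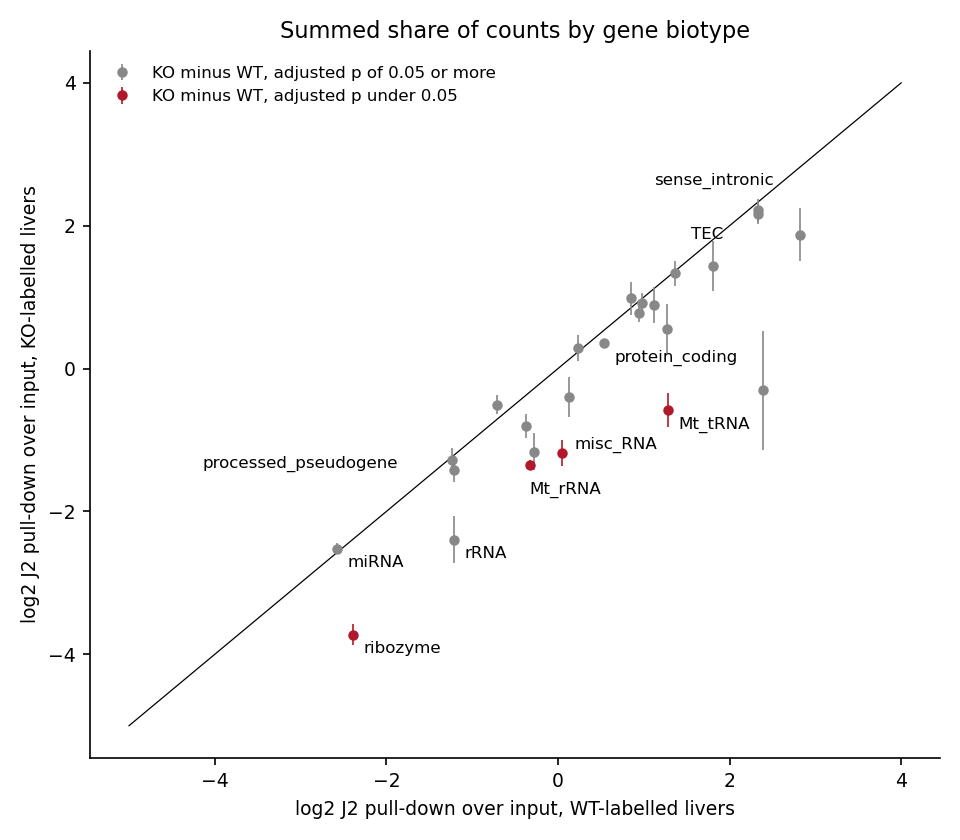
Log2 ratio of J2 pull-down over input for the summed share of counts of each of 25 gene biotypes, in KO-labelled livers (y, bars are the SE) against WT-labelled livers (x), with the line of equal ratios. The 4 classes in red (Mt_rRNA, Mt_tRNA, misc_RNA and ribozyme) lie below the line, by 1.02 to 1.86.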

How the data were processed

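Input RNA and J2 pull-down RNA of whole fetal liver were compared in the 4 KO-labelled libraries, fitted together with the 4 WT-labelled ones. The authors deposited whole-number counts of reads per gene, and no other sample's columns were in that table. The submitters' processing notes name GRCm38.p5 and STAR 2.5.3a, with no step given; strand, annotation release and duplicate handling are not given in the sources used here. The deposited H3K4me3 counts served for start positions and the mark.

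Genes kept by filterByExpr were scaled by TMM and tested with edgeR 4.0.16 (R 4.3.3) under 4 group means, with quasi-likelihood F tests and Benjamini-Hochberg adjustment over all genes; called means an adjusted p under 0.05. Biotype sums were tested with library totals as offsets; the difference between labels by biotype was added after the data were seen. The replicate numbers pair input and pull-down of a liver, per the labels' protocols; deviations of the paired libraries correlated at 0.012 (KO) and 0.128 (WT). The labels call the libraries biological replicates, 2 a group. Members and lists were chosen with earlier results of these data known.

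Named genes were Mettl3, the 12 highest and 12 lowest called genes whose mean log2 CPM reached 3, with the same sign in both livers, the 10 with most pull-down counts, the 2 highest called genes of each biotype, and up to 4 members of each list by smallest p; genes from outside this rule, such as Mir3058, Mir1898, Mir144, Mir451a, Mir7688, mt-Nd2 and mt-Cytb, were named after their values were seen. Alternatives were RLE or total scaling, TMM from coding genes, other filters, DESeq2 1.42.0, the block, only the 4 KO-labelled libraries, and leaving out libraries. The fit was tested on simulated data. A few genes of the lists are not reported here by name.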

Additional observations from a re-analysis of the deposited data

Results flagged for a closer look

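The difference of J2 enrichment between the labels was called in 4 gene biotypes, each by the test of the difference itself (KO minus WT of the log2 ratio of summed shares). The values were -1.02 for Mt_rRNA, -1.34 for ribozyme, -1.86 for Mt_tRNA and -1.22 for misc_RNA. Over the alternatives and left-out libraries in which each was tested, Mt_rRNA ranged from -1.06 to -0.89, ribozyme from -1.52 to -1.17, Mt_tRNA from -2.01 to -1.73 and misc_RNA from -1.46 to -0.94. The Mt_tRNA class took 0.00455% and 0.0042% of counts in the KO-labelled pull-downs and 0.00864% and 0.00981% in the WT-labelled ones, so it rests on few reads.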

How the results depend on the processing

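Of the 190 named genes and the biotype sums tested under each alternative, only Mir7688 lost its direction. Its fitted value was 0 once input 2, which holds all its input counts, or both libraries of liver 2 were left out. Its range without 1 library was -8.09 to 0 on the log2 scale. The list medians of erythroid and interferon-stimulated genes changed sign with library size alone, and that of nuclear long noncoding RNAs with each other scaling. Genes higher in the KO-labelled pull-downs numbered 1474 to 1823 with 1 KO-labelled library left out and 872 or 901 with both libraries of a liver left out, against 2246; genes lower numbered 1233 to 1674, and 758 or 863, against 2216. A group left with 1 library is assumed to vary like the others. Other settings gave 2232 to 2933 higher and 1730 to 2606 lower genes. With the replicate block (liver of origin) 2300 were higher and 2151 lower. For the difference between labels, against 0 genes, library size alone gave 3, no filter 103, DESeq2 76 and the replicate block 10; leaving out libraries gave 0 to 9, with 9 without WT-labelled pull-down 1. The difference for misc_RNA was -1.16 without WT-labelled input 2, where its call was lost, and ranged from -1.46 to -0.94 with 1 library left out. Of 176 named genes called, 49 lost the call without at least 1 of the 4 KO-labelled libraries, most of them genes with few counts. With 2 livers a label and 3100910 to 5251496 counts a library, smaller changes of low genes are not resolved.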
